A study of Mus musculus with 2 samples.

Results

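The immunoglobulin-superfamily adhesion molecules described here are 10 genes whose proteins stand on the cell surface and hold cells to each other or to their surroundings: Icam1, Icam2, Vcam1, Thy1, Mcam, Alcam, Ncam1, L1cam, Nrcam and Chl1. Members were taken as every non-control probe that carries 1 of these symbols as its gene name on the array, which gave 23 probes of 9 genes among 41168 probes kept. Nrcam had no probe under its symbol. Its RefSeq accession NM_176930 belongs to a probe that the array names C130076O07Rik, and that probe is given separately. All 9 genes were well above background in 1 or both lines, out of 19251 such genes in all, so no member was lost to the filter on low signals. Of the 23 probes, 15 were measured on both arrays, 5 on 1 array and 3 on neither.

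Proteins of this family carry immunoglobulin-like domains outside the cell, and many bind a copy of themselves or a relative on the next cell, while others bind integrins. ICAM1, ICAM2 and VCAM1 are the integrin ligands of endothelium that let blood cells attach and leave the vessel. NCAM1 and the L1 family (L1CAM, NRCAM and CHL1) act in the nervous system, where they guide axons, bundle fibres and support cell migration, and NCAM1 can carry polysialic acid, which loosens adhesion. THY1, MCAM and ALCAM are found on mesenchymal, vascular and neural cells alike.

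Both groups, called EGFP cells and Pax6 cells below, were mouse neural progenitor cells of strain 129/Ola, with 1 array each. Both came from N31, a secondary progenitor line made from induced pluripotent stem cells whose founders were NSEB5-2C cells, and both carried doxycycline-inducible transgenes for Oct3/4, Sox2, Klf4 and c-Myc. The EGFP line also held a CAG-EGFP-IP construct and the Pax6 line a CAG-Pax6-IP construct, each put in with the Tol2 transposon and driven by the ubiquitous CAG promoter. Total RNA was taken after 24 h of doxycycline in both lines, when only the EGFP line had visibly changed shape, so no array shows either line without doxycycline. The labels do not say whether a line was a clone or a pool. The study asked how Pax6 affects the mesenchymal to epithelial transition early in reprogramming.

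Signals are Agilent processed intensities, and log2 differences are Pax6 minus EGFP after each array was scaled to its 75th percentile (854 in EGFP cells, 991 in Pax6 cells). Signals and their sums are printed before this scaling, so they read higher on the brighter Pax6 array. Of the non-control spots, 64.7% and 67.2% were well above background on these arrays. With 1 array per line there is no replicate check and no test, and the number of arrays limits the precision. The value after ± is the software's measurement error, which says nothing about the spread between cultures. Its median over genes was 0.20, and bright probes of different genes share nearly that value, so it is no spread observed for a probe. A probe seen on 1 array only has a bound, written as "at least", against the higher of its own dim signal and the floor, the smallest signal still well above background (10.3 in EGFP cells, 9.30 in Pax6 cells). A bound leaves out the measurement error and depends on the background step, so "at least" is not a guaranteed minimum. Of the 13 neural progenitor markers 11 were above background, Hes5 and Olig2 being dim on both arrays. Of the 11, 3 were at least 2-fold different (27.3%), beside 4.77% over all genes. Sox2 was higher in Pax6 cells (1.74), Nes (-1.66) and Slc1a3 (-3.69) were lower, and Vim, the brightest, differed by 0.13. Both lines carried a doxycycline-inducible Sox2 transgene, and whether the Sox2 probe reads it was not tested. Of 13 neuron markers 10 were above background and 1 was 2-fold different, Snap25 (-1.66). The brightest Pax6 probe differed by 0.35 ± 0.20, and whether it reads the transgene is not stated in the labels, so it checks neither the overexpression nor the array labels.

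Icam2 was the adhesion gene that was far higher in Pax6 cells, with a bound of 18.6-fold. Thy1 was the gene that was 2-fold or more lower there, with a bound of 4.40-fold. With normexp background correction they differed by 3.64-fold and 1.26-fold, less than these bounds. The other 7 genes differed by less than 2-fold or had a bound below it. Of the 9 genes, 2 were at least 2-fold different (22.2%), 1 in each direction. With normexp background correction 0 were 2-fold lower, and with detection required on both arrays 0 differed 2-fold in either direction. The share over all 19251 genes was 4.77%, with 2.35% (452 genes) higher and 2.43% (467 genes) lower in Pax6 cells. Scaling by the median turned that split to 538 higher and 370 lower. With 9 genes a count of 2 carries little weight. The median difference of the 9 genes was 0.22, against -0.0084 over all genes, and it fell to 0.042 with the mean of each gene's probes and to 0.095 with their median. Both 2-fold genes rest on a probe that was not well above background on 1 of the arrays, and of the 15 probes measured on both arrays all 15 lay within 2-fold, between -0.88 and 0.26.

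**Figure D1:**
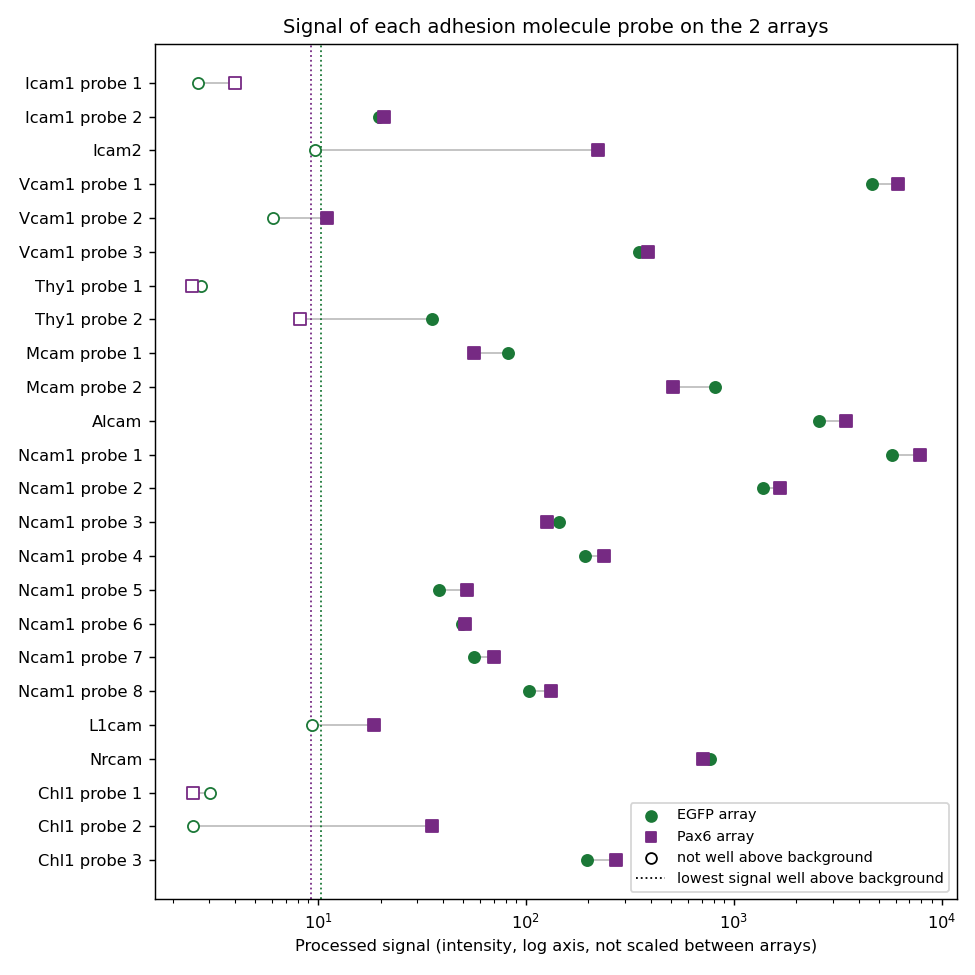
Processed signal (intensity, log axis, before scaling) of the 23 probes and the Nrcam probe, numbered by position within a gene, with the EGFP array as circles, the Pax6 array as squares, open symbols for signals not well above background and dotted lines at the floor of each array. Icam2 goes from 9.65 in EGFP cells to 223 in Pax6 cells, Thy1 probe 2 from 35.2 to 8.20, and most other pairs lie close together.

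Icam2, a ligand of the leukocyte integrin LFA-1 that endothelial cells, platelets and lymphocytes display, had 1 probe, at chr11:106486772-106486831 on the minus strand (mm7, as are all probe positions here). Its signal was 9.65 ± 2.31 in EGFP cells, not well above background, and 223 ± 22.4 in Pax6 cells. The probe was therefore seen in Pax6 cells alone. Before the software's background step the spot averaged 58.6 per pixel over a local background of 26.0 in EGFP cells and 306 over 29.0 in Pax6 cells. The log2 difference had a bound of 4.22, and was 4.32 ± 0.37 when the dim signal was taken as measured. With normexp background correction and quantile normalization it was 1.86, or 3.64-fold. Icam2 has a single probe of 1 spot, so no second probe bears on the value.

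Of 15 endothelial markers 9 were above background and 0 were at least 2-fold different, with differences from -0.73 to 0.60. So few markers would hold less than 1 such gene at the 4.77% found over all genes. The brightest were Flt1 (-0.51), Plvap (-0.10) and Eng (0.60). Before scaling, the summed signal of these 9 was 5796 in EGFP cells and 5084 in Pax6 cells, most of it from Flt1. Without that gene it was 928 and 1112, a gap that includes the greater brightness of the Pax6 array. The defining genes Cdh5, of the endothelial cadherin, and Pecam1 were dim on both arrays. Of 14 blood and microglia markers 6 were above background and 0 were at least 2-fold different, again beside 4.77% over all genes. The 6 summed to signals of 794 and 727 before scaling. The brightest were Cd68 (-0.52), Cd14 (-0.32) and Fcer1g (0.05). Ptprc, the gene of the leukocyte antigen CD45, was also not above background, with signals of 3.14 and 5.27. In bulk RNA, a change in the number of cells of a type and a change of RNA per cell cannot be told apart.

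The neighbours of Icam2 in the RefSeq gene order (GRCm38.p6) gave no second large difference. Of the 10 nearest protein-coding genes, 5 on each side, 5 were above background, with values from -0.51 to 0.39. Of these 0 were at least 2-fold different, beside 4.77% over all genes. The adjoining gene Ern1, a sensor of unfolded protein, differed by 0.39 ± 0.21. Pecam1 is among the 10 and was dim on both arrays.

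Icam1, the cytokine-inducible ligand of LFA-1 and Mac-1, was faint on both arrays. Its probe at chr9:20905300-20905359 was printed as 10 spots, whose signals ran from 13.1 through a median of 19.7 to 26.2 in EGFP cells and from 16.8 through 20.7 to 24.4 in Pax6 cells. The ranges overlap, and 9 of 10 spots in EGFP cells and 10 of 10 in Pax6 cells were well above background. The log2 difference, a mean over the 10 spots, was -0.12 ± 0.32, where the error is the average for 1 spot. It is smaller than the SD of 0.36 over the spots, which describes single spots and not their mean. The other probe, at chr9:20904404-20904463, was not above background on either array (2.64 and 3.98). Icam4 and Icam5, which follow Icam1 directly in the gene order, differed by -0.52 ± 0.21 and -0.31 ± 0.21.

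The promoter of Icam1 is shown because Icam1 is a classic target of NF-kappaB, whose pathway genes were measured as well. The 250 bases before its start (chr9:21015690-21015939, plus strand, GRCm38.p6, RefSeq) hold GGAAATTCC, an NF-kappaB element, 153 to 145 bases before the start, in capitals. The element was searched on both strands and occurs in 0.286% of 32851 promoters of the same length.
Icam1: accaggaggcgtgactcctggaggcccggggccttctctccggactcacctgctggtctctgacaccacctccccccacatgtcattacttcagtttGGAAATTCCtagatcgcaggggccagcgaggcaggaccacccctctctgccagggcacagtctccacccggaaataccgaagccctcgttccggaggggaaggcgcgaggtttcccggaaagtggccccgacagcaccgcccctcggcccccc
Of the 10 genes, 6 had a promoter in the table used (Icam1, Mcam, Alcam, L1cam, Nrcam and Chl1), and Icam1 was the 1 of them with this match. The entries for Icam2, Vcam1, Ncam1 and Thy1 were not used here. A match describes letters and does not show binding.

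Of 19 listed NF-kappaB pathway genes 15 were above background, and 0 were at least 2-fold different, with a median of 0.042. At the share of 4.77% over all genes, 15 genes would hold less than 1, so the count is near the background. Nfkbia, the inhibitor gene that NF-kappaB itself induces, differed by 0.14 ± 0.20 (signals 6482 and 8284), Rela, a DNA-binding subunit, by -0.07 ± 0.20 (5377 and 5949), and Ccl2, a chemokine gene, by -0.15 ± 0.20. The farthest from 0 was Ptgs2, of cyclooxygenase-2, at 0.96 ± 0.20. Tnf, Il1a, Il1b and Rel were not above background on either array.

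Vcam1, the ligand of integrin alpha4-beta1 that neural stem cells of the adult forebrain also carry, was well above background on both arrays. Its brightest probe (chr3:115885211-115885270) read 4629 ± 463 in EGFP cells and 6169 ± 617 in Pax6 cells, a log2 difference of 0.20 ± 0.20. The next (chr3:115900948-115901007) read 350 ± 35.1 and 386 ± 38.6, a difference of -0.08 ± 0.20. The difference of the brightest probe is thus as large as its error, and the probes disagree in sign, the dimmer one turning to 0.0065 when arrays are scaled by the median. Another, made to the clone AK085320, was dim in EGFP cells (6.05) and 11.1 in Pax6 cells, which gives no fold. The alpha4 integrin gene Itga4 differed by 0.08 and its partner Itgb1 by 0.05.

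Thy1, a small GPI-anchored protein of thymocytes, neurons and fibroblasts, had a probe at chr9:43982862-43982921 that read 35.2 ± 4.87 in EGFP cells and 8.20 ± 3.22 in Pax6 cells. The Pax6 signal was not well above background, so the log2 difference is a bound of -2.14, and -2.32 ± 0.60 as measured. Both spots were dim before the background step, at 58.5 per pixel over 29.5 in EGFP cells and 38.05 over 29.0 in Pax6 cells. With normexp background correction the difference was -0.34, or 1.26-fold, below the 2-fold rule. The other Thy1 probe, within chr9:43981253-43981698, was not above background on either array (2.73 and 2.47). Thy1 is used as a marker of fibroblasts, whose other markers went both ways. Of 12 listed, 4 were 2-fold or more higher in Pax6 cells and 3 lower, which is 58.3%, beside 4.77% over all genes. Before scaling, the 12 summed to signals of 105681 in EGFP cells and 74357 in Pax6 cells. Most of that sum was Col1a2, and without it the other 11 markers summed to 14810 and 27850, which turns the direction. The higher genes were Col3a1 (1.93), Pdgfra (1.92), Dcn (2.95) and Fap (a bound of 4.27), and the lower ones were Col1a1 (-2.33), Col1a2 (-1.18) and Twist2 (-4.01). Their part in the Thy1 difference was not tested.

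Mcam, also called CD146, an adhesion molecule of vessels, pericytes and melanoma, was lower in Pax6 cells on both of its probes by less than 2-fold. The brighter (chr9:44076783-44076842) read 811 ± 81.2 in EGFP cells and 510 ± 51.1 in Pax6 cells. Its log2 difference was -0.88 ± 0.20, or 1.85-fold. The other (chr9:44074728-44074787) read 81.6 ± 8.60 and 56.3 ± 6.14, a difference of -0.75 ± 0.22, and -0.36 with normexp background correction. Among genes measured on both arrays, 5.27% had a larger absolute difference than Mcam. Of 10 pericyte and smooth muscle markers 8 were above background, 0 of them 2-fold higher and 2 lower (25.0%, beside 4.77% over all genes). These were Tagln (3.36-fold) and Des (2.90-fold), and with normexp background correction Des, at -0.56, no longer passed 2-fold. Before scaling, the list summed to 20002 in EGFP cells and 20895 in Pax6 cells. Without Acta2, its brightest gene, the sums were 7578 and 5274. The Pax6 array was brighter as a whole, so the larger first sum there does not show higher expression. The part of these markers in the Mcam difference was not tested.

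Mcam and Thy1, both lower in Pax6 cells, are near neighbours, with 91.8 kb between their probes. In the RefSeq order Usp2, C1qtnf5, Mfrp and Rnf26 lie between them. Usp2, a deubiquitinase gene next to Thy1, differed by -0.78 ± 0.23, while C1qtnf5 and Rnf26 differed by -0.02 ± 0.39 and 0.06 ± 0.20. On the other side of Thy1, Nectin1, of a nectin adhesion molecule, differed by -0.39 ± 0.20 and Trim29 by -0.96 ± 0.37. Oaf, beyond them, differed by 0.25 ± 0.20. Trim29 (28.2 in EGFP cells and 16.9 in Pax6 cells) and Usp2 (54.7 and 37.1) had faint signals. Lower values in this stretch were thus interleaved with genes near or above 0.

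The promoter of Mcam is shown as that of the member with the largest difference measured on both arrays. Its 250 bases before the start (chr9:44134408-44134657, plus strand, GRCm38.p6, RefSeq) hold the E-box CACCTG, a sequence that Zeb and Snail repressors can bind, 212 to 207 bases before the start, in capitals.
Mcam: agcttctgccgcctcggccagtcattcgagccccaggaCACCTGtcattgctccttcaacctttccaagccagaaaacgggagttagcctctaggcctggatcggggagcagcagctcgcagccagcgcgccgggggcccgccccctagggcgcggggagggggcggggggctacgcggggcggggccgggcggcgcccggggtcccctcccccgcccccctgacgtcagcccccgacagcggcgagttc
Searched on both strands, CACCTG occurred in 4 of the 6 promoters (Icam1, Mcam, Alcam and Nrcam) and in 17.2% of all 32851. The differences of these genes lay on both sides of 0, at -0.88 for Mcam, -0.34 for Nrcam, -0.12 for Icam1 and 0.22 for Alcam.

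Alcam, which binds itself and CD6 on T cells, read 2561 ± 256 in EGFP cells and 3454 ± 345 in Pax6 cells with its 1 probe, within chr16:52100907-52102784. The log2 difference was 0.22 ± 0.20, about as large as its error. Cd6, the gene of its binding partner, was 2.61-fold lower in Pax6 cells, with signals of 635 and 282 and a difference of -1.38 ± 0.20.

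**Figure D2:**
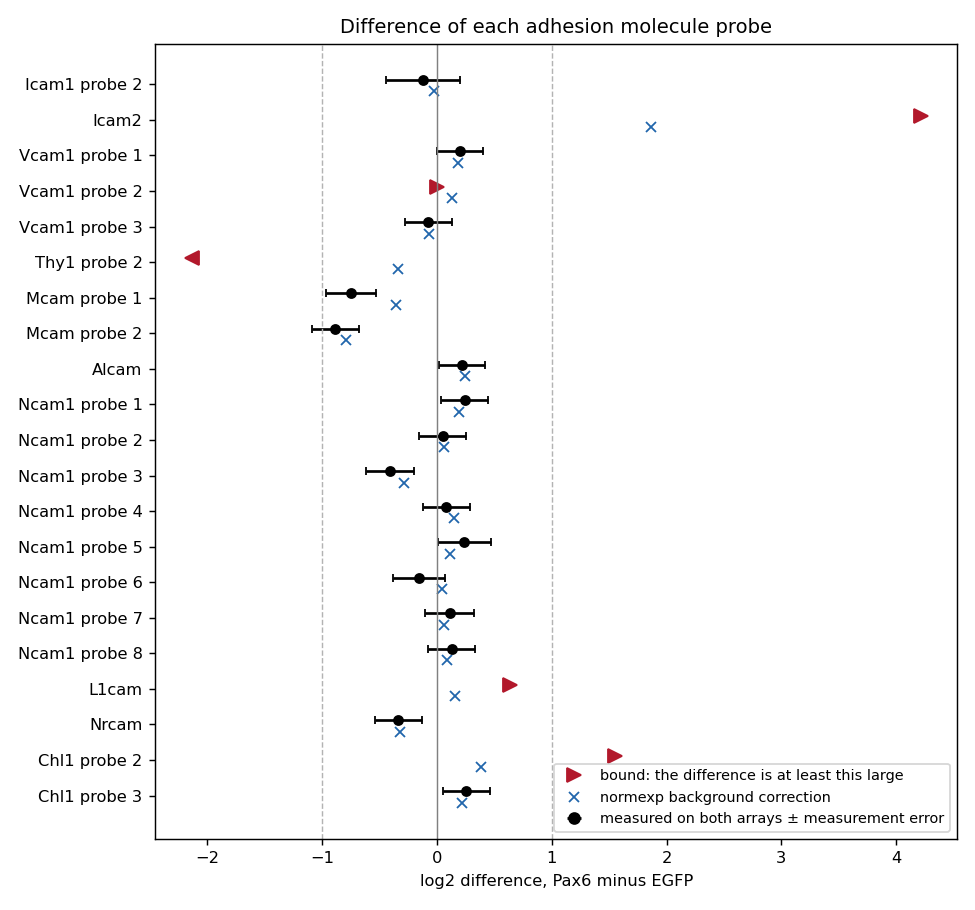
log2 difference (Pax6 minus EGFP) of each probe seen on at least 1 array, with measured probes as points with the measurement error, bounds as triangles pointing the way of the difference, normexp values as crosses and dashed lines at 2-fold. Icam2, Thy1 probe 2 and Chl1 probe 2 lie beyond 2-fold and all are bounds, which are drawn without their error. With normexp correction Icam2 alone stays beyond it, at 1.86.

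Ncam1, the neural cell adhesion molecule, had 8 probes, all measured on both arrays, over 139.7 kb of chromosome 9. The largest difference among them was 1.33-fold. Their differences ran from -0.41 to 0.24 with a median of 0.095, 6 of them above 0 and 2 below. The probe nearest the 3' end (chr9:49477456-49477515, matching X15052, which the array describes as the end of the NCAM-140 and NCAM-180 transcripts) read 5741 ± 574 in EGFP cells and 7882 ± 788 in Pax6 cells, a difference of 0.24 ± 0.20. The next, 2.90 kb upstream, read 1385 ± 139 and 1665 ± 167, a difference of 0.05 ± 0.20.

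The lowest Ncam1 value came from another probe of X15052, 5.09 kb from the first, which read 145 ± 14.6 and 127 ± 12.8 and differed by -0.41 ± 0.21, or 1.33-fold. Probes of the same transcript record thus differed in sign. A probe of NM_010875 printed as 10 spots (chr9:49521434-49521493) read 34.5 to 43.5 with a median of 38.3 in EGFP cells and 45.5 to 65.0 with a median of 50.2 in Pax6 cells. These ranges do not overlap before scaling, but the Pax6 array was brighter as a whole (75th percentile 991 against 854). Once scaled to these percentiles the ranges do overlap. The scaled difference was 0.24, with an SD of 0.15 over spots. The probe of X14526, a sequence that holds the alternative exon pi between exons 7 and 8, differed by -0.16 ± 0.23 (49.2 and 51.1), and by 0.040 with normexp background correction.

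**Figure D3:**
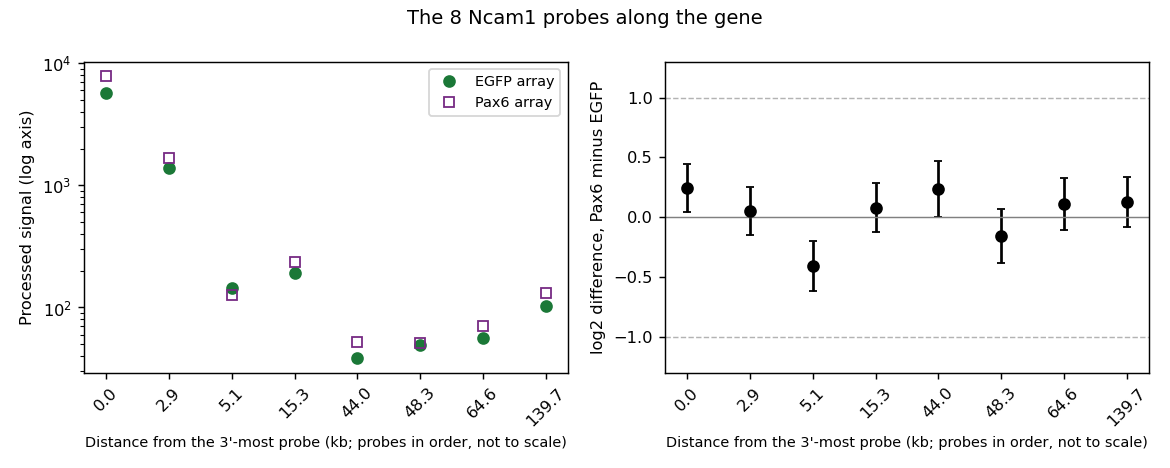
The 8 Ncam1 probes in order of distance (kb) from the 3'-most probe, with the processed signal on each array (left, log axis) and the log2 difference with its measurement error (right, dashed lines at 2-fold). All 8 differences lie between -0.41 and 0.24, so no probe reaches 2-fold.

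L1cam, the founder of the L1 family and a molecule of growing axons, was close to background. Its probe (chrX:69241688-69241747) read 9.41 ± 2.45 in EGFP cells, not well above background, and 18.7 ± 2.82 in Pax6 cells. The bound was 1.55-fold higher in Pax6 cells (0.64). The difference was 0.77 ± 0.43 as measured and 0.16 with normexp background correction, so 1.55-fold is not a firm minimum.

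Chl1, the close homologue of L1, had probes that disagreed in size. The brightest (chr6:103824301-103824360) read 197 ± 19.8 in EGFP cells and 273 ± 27.3 in Pax6 cells, a difference of 0.26 ± 0.20. A probe of the same transcript 3.54 kb before it (chr6:103820761-103820820) read 2.50 ± 2.24 in EGFP cells and 35.3 ± 4.07 in Pax6 cells, which is at least 2.94-fold higher (1.55) and 1.31-fold with normexp background correction. Both were higher in Pax6 cells, and the mean of the 2 probes was 0.90. The last probe, made to AK082640, was not above background on either array.

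Nrcam, a partner of neurofascin at nodes and on growing axons, was read by the probe of NM_176930 (chr12:42566585-42566644). Its signal was 772 ± 77.3 in EGFP cells and 709 ± 71.0 in Pax6 cells, a difference of -0.34 ± 0.20. With this gene added the median of the family was 0.21 and the counts at 2-fold stayed at 1 higher and 1 lower. The L1 family members thus had values on both sides of 0.

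**Figure D4:**
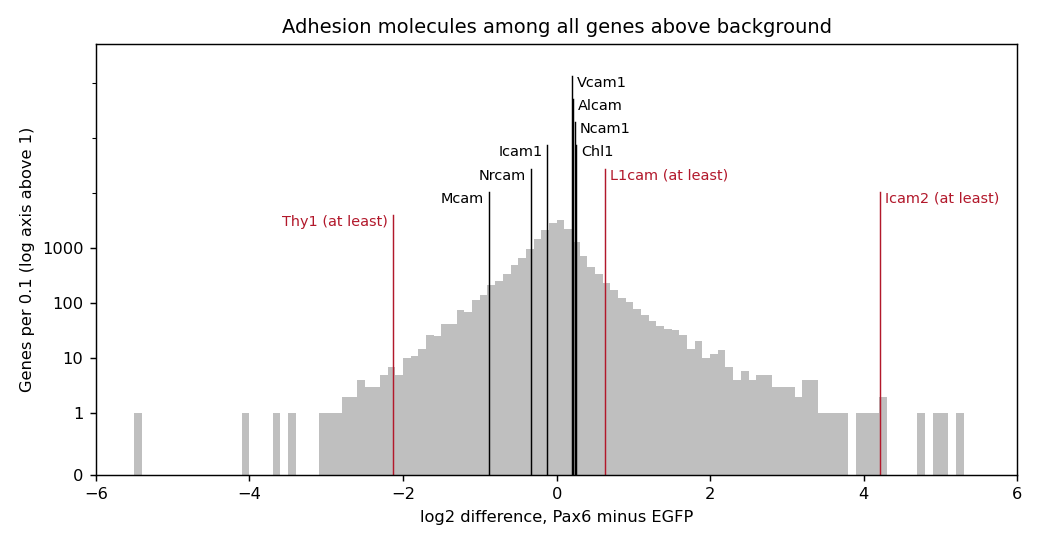
Histogram of the log2 difference (Pax6 minus EGFP) of 19251 genes in bins of 0.1 (gene count, log axis above 1), with the value of each adhesion molecule as a line, red where it is a bound. Icam2 at 4.22 and Thy1 at -2.14 lie in the tails, and Icam1, Vcam1, Alcam, Ncam1, Chl1 and Nrcam lie within 0.34 of 0.

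St8sia4, a polysialyltransferase that builds polysialic acid on NCAM1, was 2.88-fold higher in Pax6 cells, with signals of 2301 and 7690 and a difference of 1.53 ± 0.20. St8sia2, the related enzyme, was not above background on either array (5.87 and 11.3). Bace1, the beta-secretase that cleaves CHL1, L1CAM and other surface proteins, was 4.55-fold higher, with signals of 499 and 2636 and a difference of 2.19 ± 0.20. With normexp background correction these were 1.48 and 2.04 on the log2 scale. Of the other proteases above background, Adam8 differed by 0.39 ± 0.20, Adam10 by -0.31 ± 0.21, Adam17 by -0.32 ± 0.20, Mmp14 by -0.33 ± 0.20 and Reln by 0.50 ± 0.22. Of 10 listed enzymes 7 were above background, 2 of them 2-fold higher and 0 lower. That is 28.6% of the 7 at 2-fold, beside 4.77% over all genes, and with 7 genes a count of 2 carries little weight.

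Of 36 listed binding partners 29 were above background, 2 were 2-fold higher in Pax6 cells, 2 lower and 25 neither, with a median of 0.068. That is 13.8% of the 29 at 2-fold, beside 4.77% over all genes. With normexp background correction 1 was 2-fold higher and 2 lower. Gfra1, the GDNF co-receptor through which NCAM1 can also signal, was 4.44-fold higher, with low signals of 11.7 and 60.3 (2.15 ± 0.33, and 0.69 with normexp background correction). Gdnf itself was dim in EGFP cells (8.18) and 24.0 in Pax6 cells, a bound just under the 2-fold rule. Ptprb, a receptor phosphatase on the list, was 2.70-fold higher, with signals of 969 and 3036 (1.43 ± 0.20). Whether its protein binds a member was not checked. Beside Cd6, Lgals9, of the lectin galectin-9, was 2.87-fold lower (-1.52 ± 0.21). The brightest of the list lay within 2-fold: Ptprz1, a phosphatase that binds NCAM and contactin, differed by -0.16 ± 0.20, Agrn by -0.40 ± 0.20 and Ezr, of the linker ezrin, by 0.08 ± 0.20.

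Of 53 other adhesion genes of the family 39 were above background, 1 was 2-fold higher in Pax6 cells, 2 lower and 36 neither, with a median of -0.066. That is 7.69% of the 39 at 2-fold, beside 4.77% over all genes. Sdk1, a synaptic adhesion gene of the sidekick pair, was seen in Pax6 cells only (2.83 and 135) and was at least 11.3-fold higher, and 1.34 on the log2 scale with normexp background correction. Bcam, a laminin receptor of blood and epithelial cells, was at least 3.82-fold lower on faint signals (30.6 and 5.75), and -0.42 on the log2 scale with normexp background correction. Cadm2, a synaptic adhesion gene, was 2.44-fold lower (-1.29 ± 0.21, signals 156 and 74.1), and -0.83 on the log2 scale with normexp background correction, below the 2-fold rule. The brightest of the list were F11r, of the junction molecule JAM-A, at -0.61 ± 0.20, Nectin3 at -0.21 ± 0.20 and Nptn at 0.15 ± 0.20.

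**Figure D5:**
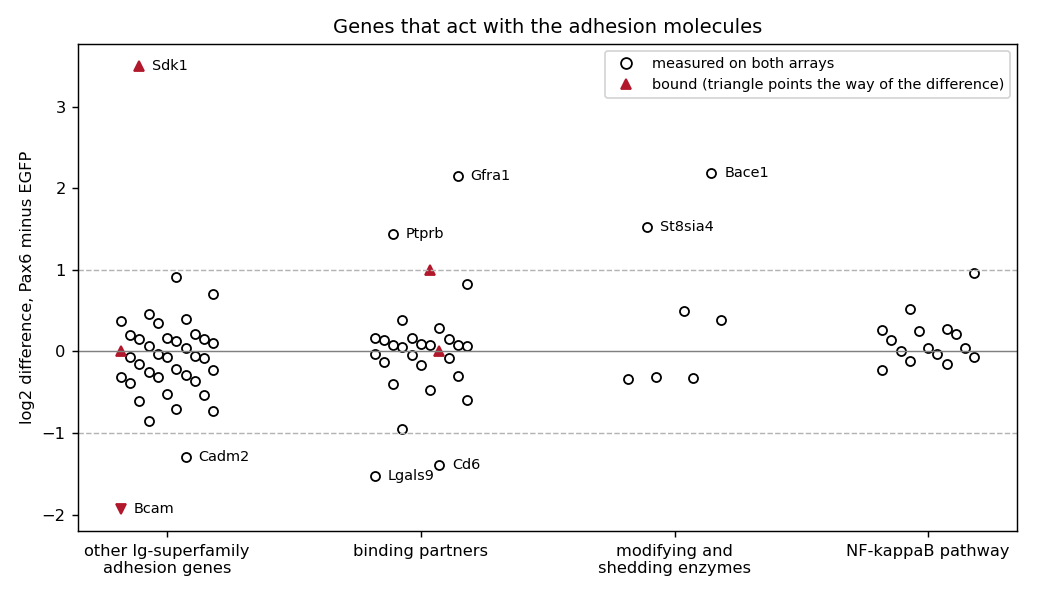
log2 difference (Pax6 minus EGFP) of each gene above background in the lists of other immunoglobulin-superfamily adhesion genes, binding partners, modifying and shedding enzymes, and NF-kappaB pathway genes, with bounds as triangles, dashed lines at 2-fold and names for genes beyond it. Sdk1 is farthest up at 3.49 or more, Bace1 and Gfra1 stand at 2.19 and 2.15, and every NF-kappaB gene lies within 2-fold.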

How the data were processed

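Total RNA of 2 lines was labelled with Cy3 and hybridised to 1 Agilent 1-colour array each, on 1 slide, per the labels and the file headers. Per the file headers, Agilent's Feature Extraction software (10.7.3.1) was what the authors used. It subtracted background and removed spatial trend, which gave the deposited intensity of each spot, a linear unit. The series-wide deposited intensity table was identical to it. Other deposited columns flag spots as well above background, saturated or outlying, and outlying spots were left out.

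Signals were put on the log2 scale, the array's 75th percentile was subtracted, and spots of a probe were averaged. A probe counted as above background where at least 1 in 2 of its spots did. A gene took its brightest probe, genes were named through RefSeq accessions (55.7% of probes matched), and the rule of size was 2-fold. The naming rule took from each list the genes at least 2-fold different and the 3 brightest. For the pericyte, fibroblast, neuron and progenitor markers mainly the former are printed, and the other genes named, those dim on both arrays among them, were chosen after their values were seen. The summed signals without a list's brightest gene were added after seeing the data. Steps were tested on simulated data with differences put only into genes well above background on both arrays. The rule for bounds was therefore not tested on its own. Measurement errors come from the signal error that the software reports, carried to the log2 difference. Differences of the 8 spike-ins above background ran from -0.051 to 0.088. The members and lists were chosen with earlier results of these data known. R 4.3.3 with limma 3.58.1 and Python 3.11.15 were used. Exons and untranslated regions are not stated, as no annotation of mm7 was used here.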

Additional observations from a re-analysis of the deposited data

How the results depend on the processing

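The differences of the 10 genes kept their direction under the scalings (median, quantile, cyclic loess, spike-ins), the series table and no filter on dim probes, and when a gene's probes were averaged or their median taken, except Vcam1, which lay at 0.0 for the median. With normexp background correction, whose offset of 50 narrows differences of dim spots by construction, Icam2 was 1.86, Thy1 -0.34 and L1cam 0.16, and 0 members and 0 other immunoglobulin-superfamily genes were at least 2-fold lower. With that correction 176 of all genes were at least 2-fold higher and 109 lower, in place of 452 and 467. Averaging probes gave 0.90 for Chl1 by the mean and by the median, and 0.035 for Ncam1 by the mean. With detection required on both arrays, Icam2, L1cam and Thy1 had no value, 0 members were 2-fold different in either direction, and 0 other family genes were higher and 1 lower. Without a filter 1307 of all genes were higher and 1232 lower, with 3 other family genes higher, and with dim values as measured 713 of all genes were higher. A rule of 1.5-fold gave 2 members higher and 2 lower, 3 and 6 other family genes, and 1137 and 1494 of all genes. A rule of 3-fold gave 1 other family gene lower and 165 and 103 of all genes. The Nrcam probe was added after seeing the data. No paired analysis was possible because each group has 1 array. The limits are 1 array per line and signals close to background for Icam1, L1cam and Thy1, and for Icam2 in EGFP cells, which rests on 1 spot.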
